A study of Caenorhabditis elegans with 2 samples.

Results

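The regions described here are the autosomal sites of NHR-84 signal that lie at promoters of protein-coding genes in Caenorhabditis elegans at the first larval stage (L1). They were chosen by signal and position. In the list of 30000 regions called from both replicates pooled, a member had to rank from 1 to 5000 by the caller's signal and lie on a chromosome other than X and the mitochondrial genome. Its summit also had to lie from 500 bp upstream to 100 bp downstream of the 5' end (TSS) of a coding transcript. There were 1025 members, of 4182 autosomal regions at these ranks. Of the members, 52 were among the peaks kept by a filter on the irreproducible discovery rate (IDR), a step that favours regions of like rank in the replicates, and 973 ranked below these peaks. The data are ChIP-seq libraries from 2 biological replicates of 1 group, strain OP357, which carries unc-119(tm4063) III and the integrated transgene wgIs357. The transgene makes NHR-84 with a GFP-FLAG tag at its C-terminus, the larvae were whole organisms of mixed sex, and chromatin was sheared by sonication with a microtip. The labels name the antibody by its target, nhr-84, and all values come from this 1 transgenic strain, so no conditions could be compared. Control reads were not analysed here.

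NHR-84 belongs to the nuclear hormone receptors, transcription factors that bind short DNA motifs through zinc fingers and, in several cases, respond to small lipophilic ligands. C. elegans has a greatly enlarged set of these receptors, most of them related to vertebrate HNF4. Promoters in this animal are compact, many genes are transcribed from a shared upstream sequence in opposite directions, and many transcripts have their 5' end replaced by a spliced leader, so an annotated TSS is often a splice site and a distance to it is approximate.

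Sequences around the summit are printed for some members as examples. Each runs from 50 bases before to 50 after the summit, from the RefSeq sequence of the assembly that build ce11 names, written 5' to 3' on the strand of the gene with the nearest TSS. The first 3 are high-ranking members and the other 8 are members below the IDR peaks that were named by rank and held a word searched for. Capitals mark the word GAGAGA, the word GAGCGC, the word CGCGCA or the word CTGCGT on either strand, with overlaps allowed. The windows are chrIII:3867529-3867629 on the plus strand, chrII:10563517-10563617 on the minus strand and chrIII:7854643-7854743 on the plus strand. Those below the IDR peaks are chrII:13157054-13157154 on the minus strand for hpr-17, chrII:12459609-12459709 on the plus strand for tag-281, chrII:255318-255418 on the minus strand for scc-2 and chrIII:10460733-10460833 on the minus strand for ecps-1. The rest are chrIII:8043943-8044043 on the plus strand for K12H4.5, chrV:14847427-14847527 on the minus strand for ret-1, chrV:12870125-12870225 on the minus strand for T07F10.3 and chrV:16269692-16269792 on the plus strand for T13F3.8.
rpl-3: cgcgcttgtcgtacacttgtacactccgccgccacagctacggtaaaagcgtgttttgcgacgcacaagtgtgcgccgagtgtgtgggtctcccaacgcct
cdc-48.1: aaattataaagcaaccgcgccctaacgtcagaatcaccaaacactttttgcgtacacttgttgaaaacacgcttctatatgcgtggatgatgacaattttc
rpl-35: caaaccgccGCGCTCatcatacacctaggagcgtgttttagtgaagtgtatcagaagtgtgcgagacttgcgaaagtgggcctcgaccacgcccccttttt
hpr-17: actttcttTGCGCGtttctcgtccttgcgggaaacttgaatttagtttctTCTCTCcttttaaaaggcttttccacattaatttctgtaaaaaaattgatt
tag-281: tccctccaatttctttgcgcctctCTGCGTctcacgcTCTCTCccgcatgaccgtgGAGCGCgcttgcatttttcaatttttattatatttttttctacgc
scc-2: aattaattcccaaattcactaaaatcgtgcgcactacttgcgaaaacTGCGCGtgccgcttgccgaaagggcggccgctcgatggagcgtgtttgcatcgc
ecps-1: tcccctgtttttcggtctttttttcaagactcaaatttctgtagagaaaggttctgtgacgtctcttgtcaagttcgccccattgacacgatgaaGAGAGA
K12H4.5: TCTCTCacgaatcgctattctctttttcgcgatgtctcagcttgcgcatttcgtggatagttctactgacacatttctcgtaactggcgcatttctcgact
ret-1: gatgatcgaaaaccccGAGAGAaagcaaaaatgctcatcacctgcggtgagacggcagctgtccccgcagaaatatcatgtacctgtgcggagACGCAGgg
T07F10.3: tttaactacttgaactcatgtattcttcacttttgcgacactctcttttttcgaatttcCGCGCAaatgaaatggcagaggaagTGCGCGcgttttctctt
T13F3.8: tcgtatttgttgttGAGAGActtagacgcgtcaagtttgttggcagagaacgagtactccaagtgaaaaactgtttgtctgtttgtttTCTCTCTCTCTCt

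Of 16 windows of named members that overlap no annotated exon and could be shown, 9 held at least 1 of the 4 words. Over all members the share was 22.8% (234 of 1025). It was 21.1% over members below the IDR peaks and 13.6% over promoter regions beyond rank 5000. The printed windows below the IDR peaks were picked for holding a word, so they are not typical. The rpl-3 and cdc-48.1 windows, at the highest and the second highest member by signal, held none of the 4 words. The tag-281 window held 3 of the words, and in ret-1 a GAGAGA and a CTGCGT lay in 1 window. Runs of pyrimidines are visible in hpr-17 and T13F3.8. The scc-2 window lies inside the annotated gene, upstream of an internal TSS. A match to a word is a description of the letters, not evidence of a binding site.

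The signal that chose the members fell steeply within the list and then flattened. It was 175 at the first member, rpl-3, had a median of 59.4 over the 52 members among the IDR peaks, and ran from 51.7 to 26.1 over the 973 below, with a median of 30.2. Promoter regions beyond rank 5000 had a median of 19.6. The caller's own q-value was 0.0182 at best, had a median of 0.218 among the IDR peaks and of 0.869 below them, so most members had a high q-value. Promoter regions beyond rank 5000 had a median q-value of 0.795, lower than members below the IDR peaks, so q did not follow the order of signal. The scale of the signal is not stated, and the lists give no read counts, so the depth of each replicate is unknown.

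The 5 members of highest signal lay at rpl-3 and rpl-35, whose products are part of the large ribosomal subunit, at cdc-48.1, an AAA ATPase of protein quality control, at abhd-5.2, related to the mammalian lipid droplet protein ABHD5, and between hsr-9 and rps-19. The rpl-3 region (WBGene00004414) was first in each replicate. Replicates 1 and 2 placed the cdc-48.1 region at ranks 3 and 4 and the rpl-35 region at ranks 15 and 3. These regions stood near the top of both replicates, while abhd-5.2 stood at rank 2 in replicate 1 and at rank 118 in replicate 2. The region between hsr-9, a relative of the DNA damage protein 53BP1, and rps-19, a small ribosomal subunit gene, was at ranks 9 and 16.

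Directly below the IDR peaks, the 20 members of highest signal lay in the windows of 27 genes, with signals from 51.7 to 48.2 and q-values from 0.437 to 0.515. Their genes act in many processes. hpr-17, the counterpart of a yeast checkpoint clamp loader, shared the first of these windows with F32A11.1, and scc-2, the cohesin loader, followed at rank 112. The scc-2 summit lay inside the annotated gene, 172 bp upstream of an internal TSS. The efl-1 gene, an E2F transcription factor, was at rank 121, pcn-1, the DNA polymerase clamp PCNA, at rank 142, and rpb-11, a subunit of RNA polymerase II, at rank 118. Of translation genes, eef-2 shared rank 123 with the checkpoint gene clsp-1, eef-1G shared rank 136 with the replisome gene ctf-4, and rps-23 shared rank 116 with dpm-3. Others were ret-1, a reticulon of the endoplasmic reticulum, at rank 139 and the alpha-tubulin gene tba-1 at rank 140. Rank 113 fell inside the annotated gene slc-25A42, a mitochondrial carrier, 157 bp upstream of an internal TSS. Its summit was also 397 bp upstream of cfim-1, a factor of mRNA 3' end processing. The remaining regions lay at tag-281, at C37A2.8, at ecps-1, at Y94H6A.3, at R107.5, at K12H4.5, at T07F10.3, at tub-2 with Y71G12A.5, and at aps-1 with rpt-2.

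These 20 regions did not stand equally high in both replicates. In 12 of them both replicate ranks were within 1000, in 6 both were within 500, and 1 had no region within 100 bp in 1 replicate. The C37A2.8 region ranked 79 in replicate 1 and 73 in replicate 2, with signals of 30.8 and 32.4. The region shared by aps-1, a clathrin adaptor subunit, and the proteasome ATPase rpt-2 ranked 28 in replicate 1 and 20543 in replicate 2. For eef-1G and ctf-4 the order was the opposite, with rank 5117 in replicate 1 and 123 in replicate 2. The tub-2 region had no counterpart in replicate 1 and ranked 426 in replicate 2.

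The 10 members below the IDR peaks that ranked best in both replicates had a worse rank of the pair from 79 to 552. They were, in that order, C37A2.8, ecps-1, pgk-1, tba-1, ret-1, scc-2, eef-2 with clsp-1, T13F3.8 with fbxa-2, K12H4.5 and znf-207. The pgk-1 region, at a glycolytic kinase gene, ranked 357 in replicate 1 and 275 in replicate 2, and that of the zinc-finger gene znf-207 ranked 547 and 552. The scc-2 region ranked 73 and 481. The fbxa-2 gene, of the F-box family, shared ranks 392 and 517 with T13F3.8. These 10 regions stood high in each replicate without being among the IDR peaks, but they were selected on these very ranks.

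Over all members, agreement between replicates fell with rank. A region with a summit within 100 bp was listed in replicate 1 for 804 members (78.4%) and in replicate 2 for 836 (81.6%), in both for 628 (61.3%, 95% Wilson interval 58.2 to 64.2) and in neither for 13. Only 165 members (16.1%) were within the top 5000 of both replicates, whereas 303 were so in replicate 1 alone, 343 in replicate 2 alone and 214 in neither. Members were also split by rank into 5 bins, the IDR peaks and then those down to rank 500, to rank 1000, to rank 2500 and to rank 5000. The share in the top 5000 of both was 88.5% at the IDR peaks, 56.0% in the bin to rank 500, 22.0% in the bin to rank 1000, 7.46% in the bin to rank 2500 and 0.698% in the bin to rank 5000. The pooled list is made from the replicates, so their ranks are not independent of the choice of members. All intervals here are Wilson intervals and cover counting error only.

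Regions of ranks 1 to 5000 off coding promoters had a smaller share in the top 5000 of both replicates, 303 of 3157 (9.60%), but they rank lower. Within the same rank bins the shares of members and of off-promoter regions were 88.5% and 78.1% at the IDR peaks, 56.0% and 54.2% in the bin to rank 500, and 22.0% and 29.4% in the bin to rank 1000. In the bin to rank 2500 they were 7.46% and 6.42%. Neither set had the larger share in every bin.

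**Figure D1:**
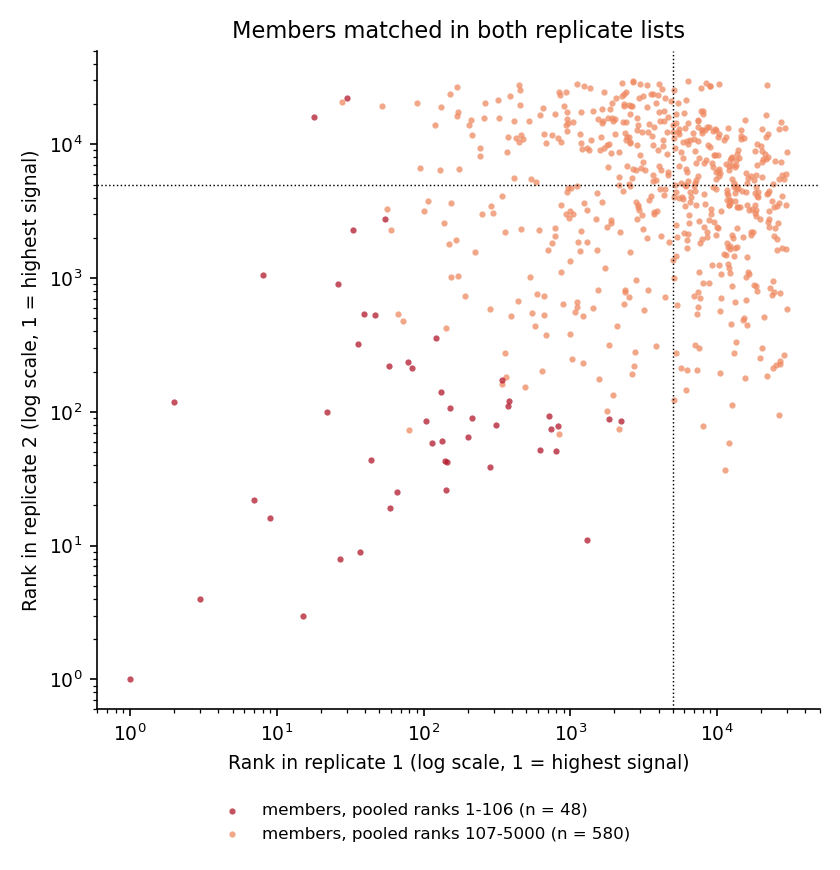
Rank of each member in replicate 1 (x) and replicate 2 (y), on log scales, for the 628 members with a summit within 100 bp in both replicate lists; dark points are members among the IDR peaks, light points those below, and dotted lines mark rank 5000. The dark points gather at low ranks in both replicates, and most light points lie beyond rank 5000 in at least 1 replicate.

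Coding promoters held a larger share of regions the higher the rank. Of autosomal regions, 61.9% (51.2 to 71.6) were at a coding promoter at the IDR peaks, 34.9% (116 of 332) in the bin to rank 500 and 30.6% (132 of 431) in the bin to rank 1000. The share was 23.4% (295 of 1261) in the bin to rank 2500 and 20.7% (430 of 2074) in the bin to rank 5000. It was 24.5% (23.2 to 25.8) over ranks 1 to 5000, against 16.3% of the 20627 autosomal regions beyond rank 5000. Ranks chose the members, so these shares are given as a description.

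At the limits of the rule, values changed by little. The last members inside the rank limit were let-522, snr-1 and T22F3.2 at rank 5000, with a signal of 26.06. The next promoter regions, at Y43F8C.7 with mrps-28, at W03F11.5 and at cox-10 with Y38E10A.33, had ranks of 5023, 5025 and 5033, with a signal of 26.03 at the first of them. At the upstream limit rab-5 and C48B4.13 had summits 500 bp from the TSS and dop-5 497 bp, while T04C12.11, rbm-12 and F55C12.4 lay 1 bp beyond that limit.

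The share of summits in a narrow band upstream of the TSS was largest among the IDR peaks and smaller in each lower bin of members. Among the IDR peaks 34 of 52 summits (65.4%, 51.8 to 76.8) lay more than 100 and up to 300 bp upstream of the nearest coding TSS, with a median of 196.5 bp upstream. In the bin to rank 500 this band held 56 of 116 (48.3%, 39.4 to 57.3). In the bins to ranks 1000, 2500 and 5000 it held 37.1%, 33.2% and 29.1%. Promoter regions beyond rank 5000 had 33.7% of summits there. Of the first 5 members, the summits at rpl-3, cdc-48.1 and rpl-35 lay 275, 160 and 441 bp upstream and the shared one lay 171 bp upstream of hsr-9. The abhd-5.2 summit lay inside the annotated gene, 312 bp upstream of an internal TSS. Over all members the median was 157 bp upstream, against 159 bp for the lower regions, and the window of the rule bounds both.

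**Figure D2:**
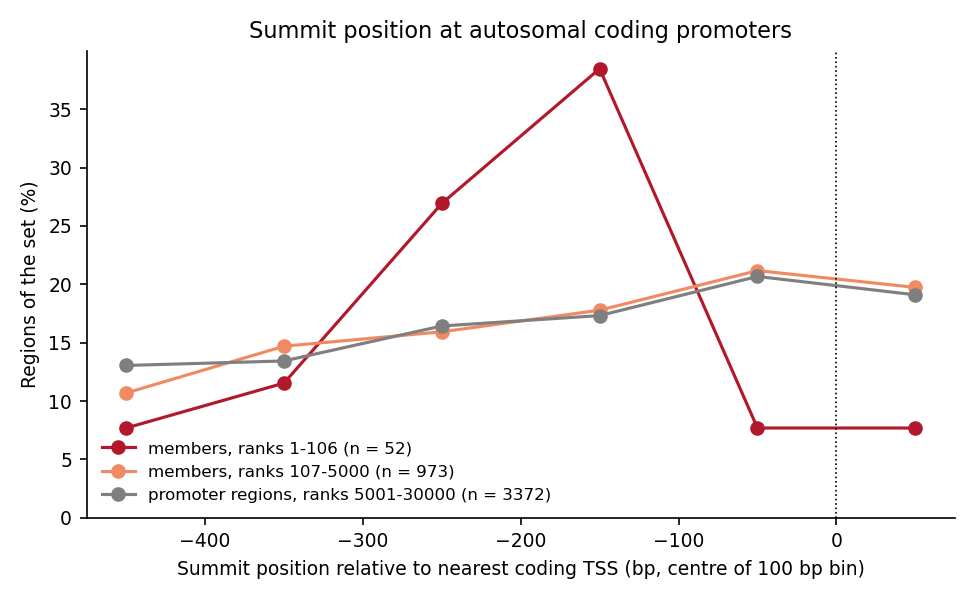
Share of summits (y, percent of each set) in 100 bp bins of position relative to the nearest coding TSS (x, bp, negative upstream) for members among the IDR peaks (n = 52), members below them (n = 973) and promoter regions beyond rank 5000 (n = 3372). The first set peaks between 200 and 100 bp upstream, with 38.5% of its summits, while the fullest bin, from 100 bp upstream to the TSS, holds 21.2% of the members below the IDR peaks and 20.7% of the lower regions.

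Most summits lay in sequence annotated as neither coding nor 5' UTR. That was so for 766 members (74.7%), while 168 (16.4%) had their summit in a coding exon and 91 (8.88%) in a 5' UTR. The promoter regions of lower rank were close to this, with 74.6%, 19.2% and 6.29%. Among the IDR peaks 47 of 52 (90.4%, 79.4 to 95.8) lay in neither feature, against 73.9% of the members below. A gene for a tRNA, snRNA, snoRNA or rRNA lay within 200 bp of 14 summits (1.37%), against 0.86% of lower promoter regions. These 14 were looked up after the members were known, and the first was snr-4 at rank 64, next to an annotated snRNA gene, T11F9.15.

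A shared upstream sequence was more frequent among members than among lower promoter regions. The summits of 150 members (14.6%, 12.6 to 16.9) lay in the windows of at least 2 coding genes, against 221 of 3372 lower regions (6.55%, 5.77 to 7.44). In 143 of the 150 the genes were on opposite strands. The share was 16 of 52 (30.8%, 19.9 to 44.3) among the IDR peaks and 134 of 973 (13.8%, 11.7 to 16.1) below them. Pairs that share 1 region include rpl-20 with Y17G9B.5, rpl-15 with K11H12.8, the elongation factor gene eef-1A.1 with the clamp loader gene rfc-4, and the vesicle tethering gene vps-51 with lin-35, the worm Rb homologue. Which gene of such a pair a region serves cannot be told from these lists.

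Counted by gene, members lay in the windows of 1137 of 17242 autosomal coding genes (6.59%), of which 1075 (6.23%) had a member below the IDR peaks and 68 (0.394%) one among them. Any pooled region lay in the window of 25.0% of genes. A coding gene on the opposite strand started within 1000 bp upstream of 380 genes with a member (33.4%, 30.7 to 36.2), of 19.2% of genes that had only a lower region and of 19.6% of all autosomal coding genes. This restates the count of shared windows in part, since a region between genes on opposite strands counts for both. The share was 54.4% for genes at the IDR peaks and 32.2% for those below. A coding gene that ended within 500 bp upstream on the same strand, the arrangement of genes inside operons, preceded 16.0% of genes with a member, 19.4% of those with only a lower region and 19.4% of all genes. Genes with a member had a median length of 2519 bp, against 2333 bp with only a lower region and 1964 bp over all coding genes. The median was 2586 bp for genes with a member below the IDR peaks. For genes with a member among the IDR peaks it was 1659.5 bp, shorter than over all coding genes.

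**Figure D3:**
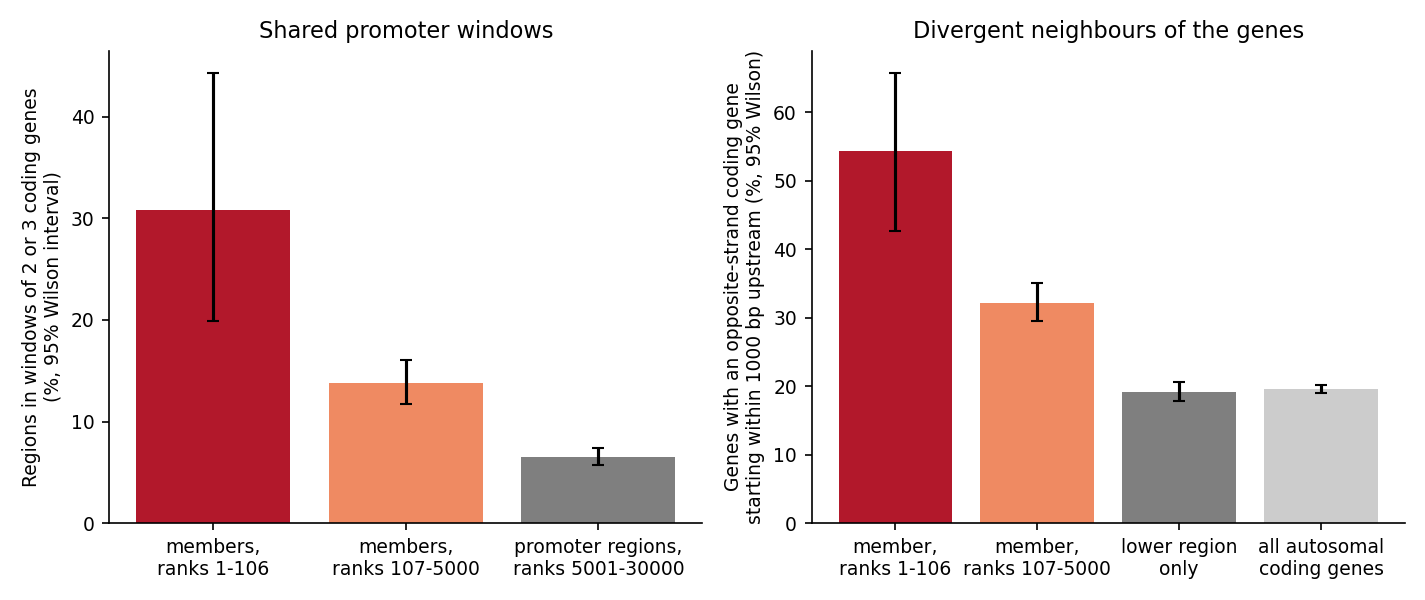
Left, share of regions (y, percent) that lie in the windows of 2 or 3 coding genes, for members among the IDR peaks, members below them and promoter regions beyond rank 5000. Right, share of genes (y, percent) with an opposite-strand coding gene starting within 1000 bp upstream, for genes with a member among the IDR peaks or below them, genes with only a lower region and all autosomal coding genes; bars run from 0 and lines are 95% Wilson intervals. Both shares are highest at the IDR peaks, at 30.8% and 54.4%.

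Ribosomal protein genes and translation factors had a member more often than coding genes at large. The 32 lists were defined by gene names, with results of these data known. Of large ribosomal subunit genes 18 of 48 (37.5%, 25.2 to 51.6) had one, against 6.59% of all autosomal coding genes; 6 had one among the IDR peaks and 12 below, led by rpl-3, rpl-35, rpl-20 at rank 10 and rpl-15 at rank 18. Small subunit genes had 8 of 31 (25.8%), with rps-19, rps-1 at rank 26, rps-20 at rank 65 and rps-26 at rank 89 highest, but in a window of 200 bp only 3.23% of the list had a member, below the 3.60% of all genes. Their summits lay 274, 265, 221 and 349 bp upstream. The regions of rps-19, rps-20 and rps-26 were shared with hsr-9, ekl-4 and tmem-107, whose TSSs were nearer, at 171, 176 and 108 bp. When regions in the windows of several genes were left out, small subunit genes had 6.45% and large subunit genes 18.75%. The share of all genes was then 4.91%. Mitochondrial ribosomal protein genes had 14 of 70, all below the IDR peaks, from mrps-7 at rank 594, mrpl-28 and mrpl-49 to mrpl-40, and 0 of the 14 were in the top 5000 of both replicates. This list had 12.9% without replicate 1 and 11.4% without replicate 2, against 6.11% and 6.29% of all genes.

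Translation factors had 9 of 39 (23.1%), led by eef-1A.1 at rank 43 and erfa-3, the release factor, at rank 103. The eef-1A.1 region ranked 36 in replicate 1 and 322 in replicate 2. Aminoacyl-tRNA synthetase genes had 4 of 32 (12.5%), which were kars-1, tars-1, mars-1 and rars-1, with ranks from 655 to 2550. The interval of this list, 4.97 to 28.1, held the 6.59% of all genes, and without replicate 1 its share was 6.25%, against 6.11%.

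Of the lists of protein folding and turnover, chaperones, proteasome and autophagy had intervals above the share of all genes and the ubiquitin list did not. Chaperone genes had 14 of 62 (22.6%), led by hsp-90 at rank 52, cct-8 at rank 79 and dnj-11 at rank 87, and the hsp-90 region ranked 104 and 86 in the replicates. The regions of hsp-90, cct-8 and dnj-11 were shared with C47E8.4, Y55F3AR.2 and F38A5.2. The hsp-90 and cct-8 summits were nearer the TSS of the other gene. Next was hsp-110, whose region also lay in the window of rpn-3, a proteasome lid subunit. Without replicate 2 the chaperone share was 11.3%. When regions in the windows of several genes were left out, the chaperone share was 8.06%, against 4.91% of all genes. Proteasome genes had 6 of 33 (18.2%), with rpt-2, rpn-3, pbs-2 and pas-5 highest and 0 in the top 5000 of both replicates. The ubiquitin list had 6 of 66 (9.09%, 4.23 to 18.4; 16.7% without replicate 1), led by cdc-48.1, the conjugating enzyme gene ubc-6, ufd-3 and the SUMO conjugating enzyme gene ubc-9, and in 5 of the 6 the region was in the top 5000 of both replicates. Autophagy genes had 7 of 27 (25.9%), from atg-16.2 at rank 840, atg-3, sqst-1 and atg-13, all below the IDR peaks and 0 in the top 5000 of both replicates. Without replicate 1 the autophagy share was 11.1%.

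Genes of the cytoskeleton, membrane traffic and nuclear transport also had members. Genes of the actin and tubulin cytoskeleton had 10 of 24 (41.7%), the highest of the 32 shares. They were led by the capping protein gene cap-2 at rank 74, tba-1 at rank 140, act-2 at rank 156 and act-5 at rank 680. With cap-2, arx-4 and arx-7, the list holds more than genes for actin and tubulin themselves. The cap-2 region ranked 26 and 905 in the replicates and act-2 1226 and 230. Without replicate 2 this list had 29.2%, below the small and large ribosomal subunit genes at 35.5% and 33.3%, and in a window of 200 bp it had 16.7%, below autophagy at 22.2%. Vesicle trafficking genes had 12 of 105 (11.4%), with vps-51, sec-61.G, vps-37 and rab-11.1 among the IDR peaks. The sec-61.G gene, taken in by its name, encodes a subunit of the translocon of the endoplasmic reticulum, and its region ranked 55 pooled and 39 and 538 in the replicates. V-ATPase genes had 5 of 18 (27.8%), from vha-13 at rank 1097, vha-1, unc-32 and vha-9, but 16.7% without replicate 2. Nuclear pore and transport genes had 11 of 40 (27.5%), led by npp-16 at rank 69, npp-20 at rank 149, the importin gene imb-3 and npp-2. Secretory translocation and folding genes had 3 of 19 (15.8%), which were spcs-2, the calnexin gene cnx-1 and tram-1, but the replicate 2 list alone gave 0. The interval of this list, 5.52 to 37.6, held the 6.59% of all genes. The name pattern of that list does not take in sec-61.G.

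Genes of energy metabolism and of nuclear functions had shares from 7.69% to 20.8%, against 6.59% of all genes. The intervals of the respiratory chain, glycolysis and splicing lists lay above that value. Those of mitochondrial import (1.37 to 33.3) and RNA polymerase genes (6.08 to 21.5) held it. So did those of chromatin (5.15 to 18.5) and replication genes (5.58 to 21.5). Respiratory chain genes had 9 of 46 (19.6%), with cox-5A at rank 24 pooled and at ranks 59 and 19 in the replicates, then cox-6B at rank 174, cox-14 and ucr-11. Glycolysis and citric acid cycle genes had 5 of 29 (17.2%), with idhg-1 at rank 78, pgk-1, the aconitase gene aco-2 and the malate dehydrogenase gene mdh-2. Mitochondrial import had only tomm-20 of 13 genes (7.69%), at rank 4077, so at ranks 1 to 2500 it had 0, and without replicate 2 it had 15.4%. Splicing factors had 10 of 48 (20.8%), with snr-4 at rank 64, lsm-6, prp-8 and rsp-2 highest, but 12.5% when either replicate was left out, and 0 of the 10 were in the top 5000 of both replicates. RNA polymerase, general factor and Mediator genes had 8 of 68 (11.8%), led by rpb-11, taf-10, rpoa-49 and taf-4. Chromatin genes had 8 of 80, with jmjd-1.2 at rank 76, set-16 at the last of the IDR peaks, the Polycomb gene mes-2 and set-21 highest. Replication and cell cycle genes had 7 of 62 (11.3%), with cdc-48.1 again, rfc-4 and pcn-1 highest.

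In 11 lists the share was below that of all genes. Chemoreceptors, the large families of sensory receptors, had 16 of 1275 (1.25%), with sri-5 at rank 230, srr-4, srh-28 and srxa-2 highest. C-type lectins had 3 of 237 (1.27%), which were clec-116, clec-103 and clec-181. F-box and MATH domain genes had 12 of 378 (3.17%), led by fbxb-72 at rank 41, fbxa-2, fbxa-197 and fbxc-54. These were the 3 lists whose interval lay wholly below 6.59%, while for 14 lists it lay wholly above and for 15 it held that value. Without replicate 2 the chemoreceptor share was 2.04%, that of the lectins 2.53% (2.11% without replicate 1) and that of the neuropeptides 4.67%. Neuropeptides had 3 genes (2.80%), ins-17, nlp-4 and nlp-5, the cuticle collagens 6 of 146 (4.11%), from col-35, dpy-18, col-145 and col-159, and the UDP-glucuronosyltransferases with glutathione S-transferases 4 of 104 (3.85%), gst-5, ugt-62, gst-31 and ugt-39. The dpy-18 product is a subunit of a collagen-modifying enzyme, not a collagen.

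Nuclear hormone receptor genes, the family of NHR-84, had 14 of 247 (5.67%), all below the IDR peaks, but 5.26% against 4.91% of all genes when regions in the windows of several genes were left out. The highest were nhr-101 at rank 546, nhr-154, nhr-212 and nhr-158, and all 4 lay on chromosome V, as did 167 of the 247 genes. Cytochrome P450 genes had 3 of 67 (4.48%), with cyp-33C8 highest then cyp-13A11 and cyp-29A2, and core histones 1 of 68 (1.47%), his-37 at rank 40, though both lists were above the other genes when only genes with any pooled region were counted, at 27.3% (3 of 11 genes) and 33.3% (1 of 3) against 26.3%. The cyp-33C8 region ranked 688 and 376 in the replicates. Fatty acid metabolism had 3 of 79 genes, acdh-9, acdh-13 and ech-6, but 10.1% against 9.83% in a window of 1000 bp, 7.59% without replicate 1 and 6.33% without replicate 2. Homeobox genes had only ceh-91 of 65 (1.54%), at rank 4936, though each replicate list alone gave 6.15%, against 6.11% of all genes without replicate 1 and 6.29% without replicate 2. Histone genes and many chemoreceptor genes have close copies, among which reads can be misplaced.

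Taking the lists as groups, 173 of the 956 genes in the 21 lists above all genes had a member (18.1%, 15.8 to 20.7), 66 of 2773 in the other 11 lists (2.38%, 1.88 to 3.02) and 898 of 13513 genes in no list (6.65%, 6.24 to 7.08). The grouping was made on these shares, so they are a description. The lists held 239 of the 1137 genes with a member (21.0%), so most members lay at genes that no list covers. Of the 173 genes, 45 (26.0%) had a member in the top 5000 of both replicates, against 9 of the 66 (13.6%) and 200 of all 1137 (17.6%). Opposite-strand neighbours let 1 region count for 2 lists, as at rpl-28 with mrpl-49, eef-1A.1 with rfc-4 and hsp-110 with rpn-3.

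**Figure D4:**
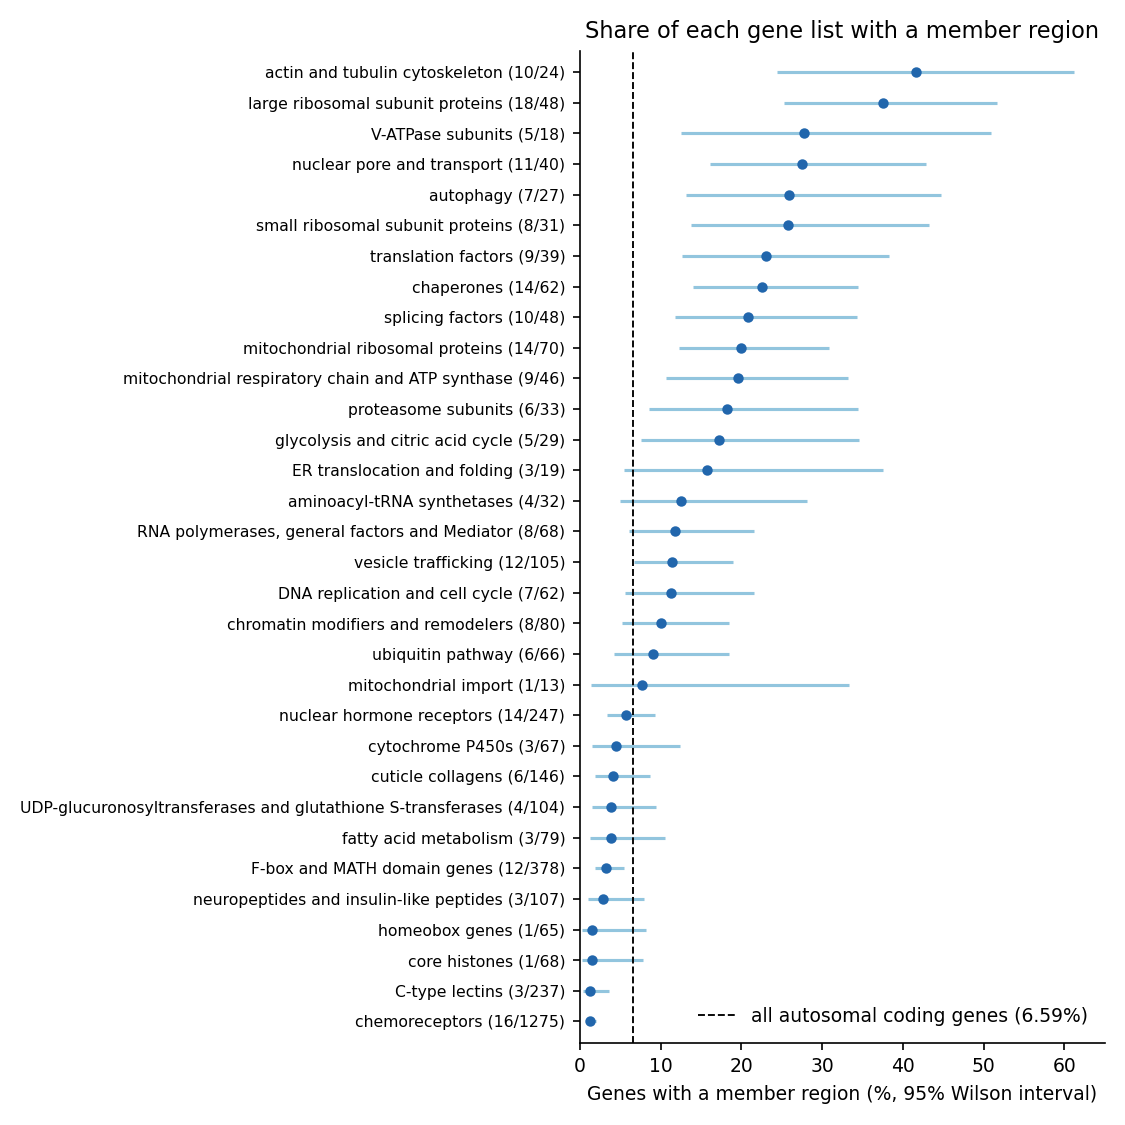
Share of the autosomal coding genes of each of 32 lists that have a member in their promoter window (x, percent, points with 95% Wilson intervals; counts beside each name), with the share of all autosomal coding genes as a dashed line. Genes of the actin and tubulin cytoskeleton stand highest at 41.7% and chemoreceptors lowest at 1.25%, against 6.59% of all genes.

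Members were spread over all 5 autosomes. Chromosome III had a member at 256 of 2640 coding genes (9.70%, 8.63 to 10.9), chromosome I at 7.71%, IV at 6.95%, II at 5.54% and V at 240 of 4994 (4.81%, 4.25 to 5.43). Chromosome V also holds 889 of the 1275 chemoreceptor genes. Within a chromosome, 394 members (38.4%) lay in the middle one of 3 equal stretches, against 37.1% of lower promoter regions and 38.1% of coding genes. Another member lay within 1 kb of 53 members and within 10 kb of 308. Spacing was not counted for lower promoter regions or gene starts, so these counts do not show whether members cluster.

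Sequence at the members was richer in G and C the higher the rank. Mean GC content in the 50 bp on either side was 38.5% ± 8.41 over the 1025 members, 36.3% ± 7.89 over the 3372 lower promoter regions and 33.9% ± 8.23 in windows of the same size placed 157 bp upstream of all autosomal coding gene starts (SD over regions or genes). In members it was 47.0% ± 7.99 at the IDR peaks, and in the bins to ranks 500, 1000, 2500 and 5000 it was 41.6% ± 8.88, 39.8% ± 8.71, 37.2% ± 8.02 and 37.1% ± 7.60. In regions off promoters it was 43.9% ± 8.58 at the IDR peaks, 39.7% ± 7.66 in the bin to rank 500 and 37.6% ± 7.58 in the bin to rank 5000, so the trend with rank was seen there too. For example, it was 28.7% at efl-1 and 29.7% at pgk-1, but 54.5% at ret-1 and 59.4% at rpl-3.

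Of 12 words searched on both strands in the same windows, 7 were at a larger share of members than of lower promoter regions. GAGCGC was found at 50 members (4.88%, 3.72 to 6.37), 1.99% of lower promoter regions and 1.89% of all coding gene starts. CGCGCA was at 53 members (5.17%), 2.05% and 2.41%, and CTGCGT at 65 (6.34%), 3.02% and 3.17%. GAGAGA, part of a longer GA repeat common at worm promoters, was at 11.2% of members (9.43 to 13.3), 7.83% and 7.99%. These 4 words had been seen in earlier results on these regions or elsewhere in the series. Their shares were highest at the IDR peaks and in the bin to rank 500, at 15.4% and 11.2% for GAGCGC, 17.3% and 9.48% for CGCGCA, 17.3% and 12.9% for CTGCGT, and 21.2% and 13.8% for GAGAGA. In the bin to rank 5000 GAGAGA, at 7.44%, was near the share of the lower regions.

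The words hold G and C, and GC content moves with rank, so they were also counted within bands of GC. In windows of at least 45% GC, members below the IDR peaks had GAGCGC at 27 of 193 windows against 4.07% of lower promoter regions, CGCGCA at 12.4% against 5.35%, CTGCGT at 13.5% against 7.49% and GAGAGA at 20.7% against 12.8%. From 35% to 45% GC the shares were nearer, with GAGCGC at 3.76% against 2.50% and CTGCGT at 6.52% against 3.71%. Below 35% GC GAGCGC was found at 0 of these members, against 0.946%. For each of the 4 words the gap between members and lower regions was widest in the GC-rich windows.

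AGGTCA, the core motif of many nuclear receptors, was at 27 members (2.63%, 1.82 to 3.81), 2.22% of lower promoter regions and 2.82% of all coding gene starts. The related AGTTCA was at 57 members (5.56%), 6.49% and 7.28%. GATAA, the core of sites bound by GATA factors, was at 21.8%, 22.2% and 24.8%, but within 100 bp of the summit its share was 0.593 percentage points higher in members than in lower regions. TATAAA, the letters of a TATA box, was at 9.17% of members, against 11.7% of lower regions and 13.4% of gene starts, and TTTCAG, the letters of the worm 3' splice site, was at 18.7%, 21.2% and 16.0%. CACGTG was at 2.73% of members, 2.11% of lower regions and 1.71% of gene starts. TGACTCA was at 1.56%, 1.22% and 1.32%. GTAAACA was at 0.878%, 1.39% and 1.73%.

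**Figure D5:**
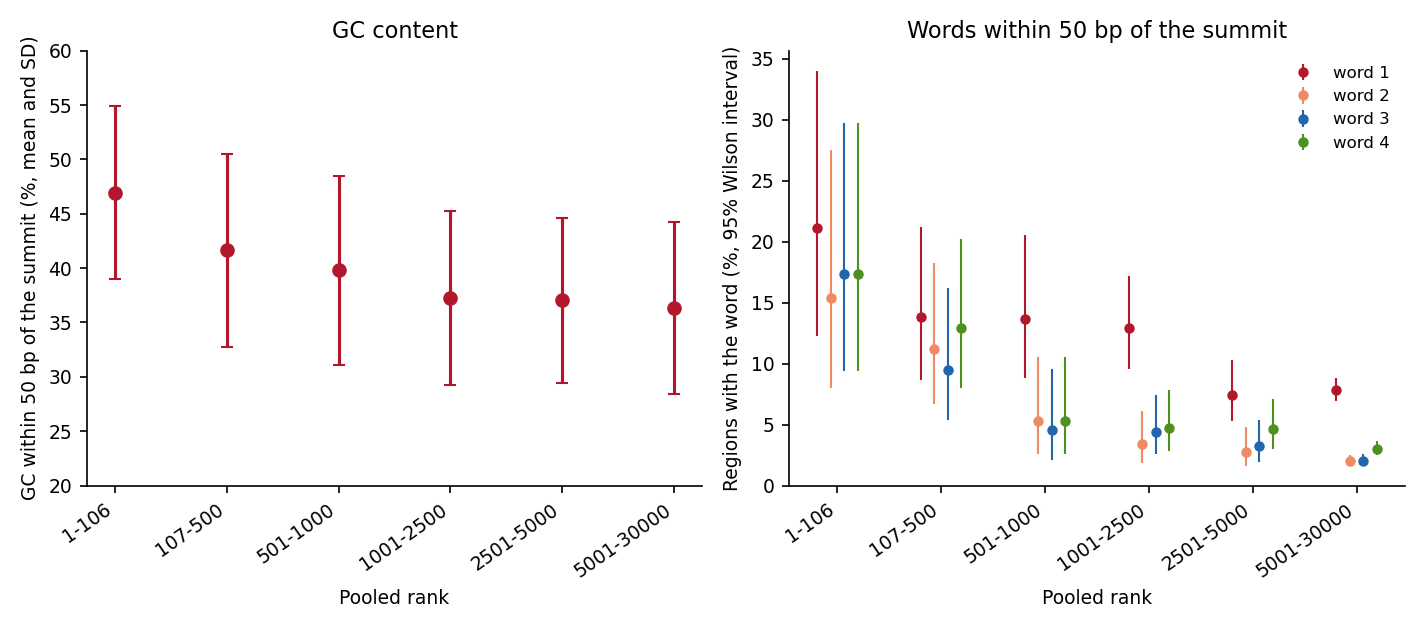
Left, GC content within 50 bp of the summit (y, percent, mean and SD over regions) by pooled rank (x), for members and, beyond rank 5000, lower promoter regions. Right, share of the same regions with each of 4 words (y, percent, points with 95% Wilson intervals), where word 1 is GAGAGA, word 2 is GAGCGC, word 3 is CGCGCA and word 4 is CTGCGT; the mean GC content is 47.0% at the IDR peaks and 36.3% at the lowest ranks, and the 4 shares are highest at the IDR peaks.

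Some genes had several members. There were 37 genes with 2 and 2 with 3. The ret-1 gene (WBGene00004336) had members at ranks 139, 1411 and 3166, and ncl-1, a repressor of ribosome synthesis, at ranks 2034, 2448 and 3547. Next by signal were K11H12.8 at ranks 18 and 3029, the alternatively spliced gene tos-1 at ranks 29 and 421, and ekl-4 with rps-20, which share ranks 65 and 1607. The best member of a gene had a median rank of 1875 over the 1137 genes.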

How the data were processed

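ChIP-seq of tagged NHR-84 was measured in 2 replicates of 1 group. The authors deposited narrowPeak lists on build ce11 for each replicate, for both pooled and for the peaks that passed IDR; lists on build ce10 were not used. Per the deposited columns, the signal is the caller's own value, of unstated scale, and column 9 is its −log10 q-value, turned here into q. All regions of a list share a width (304 bp pooled and in replicate 2, 290 bp in replicate 1), and the summit is the centre. No source used here gives the aligner, the peak caller, its settings, the IDR threshold or the depth.

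Regions were ranked by signal and set against coding transcripts of Ensembl release 115 and the RefSeq sequence of the same assembly. The 106 IDR peaks were pooled ranks 1 to 106, and the bins were ranks 107 to 500, 501 to 1000, 1001 to 2500 and 2501 to 5000. Replicate regions matched when summits lay within 100 bp. Words and GC were read from 50 bp on either side of the summit. Shares carry 95% Wilson intervals, which take regions or genes as independent, and no test was made, since the values that chose the members come from the same lists. The members and all lists and words were chosen with earlier results of these data known. Genes were named by a rule: the 5 members of highest signal, the 20 highest and the 10 best in both replicates below the IDR peaks, up to 4 genes per list, the 5 genes with most members, and regions at the limits of the rule; other names were chosen after their values were seen. Alternatives were other windows, TSS choices, rank limits, distances and backgrounds, and each replicate list alone. Code was checked on simulated data. Tools were pandas 2.3.3, numpy 2.4.6, matplotlib 3.10.9 and scipy 1.17.1 under Python 3.11.15.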

Additional observations from a re-analysis of the deposited data

How the results depend on the processing

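Of 365 alternatives, 334 kept the direction or moved by less than the limit set for a change, 20 moved a main value and 11 turned a list or word across its background; the causes were not tested, but other windows and rank limits change the set by construction. With 200 bp upstream there were 599 members, 14.3% of autosomal regions, 5.01% of them in windows of several genes. With 1000 bp these shares were 35.9% and 19.7%. The median summit position followed the window, at -48 bp with 200 bp upstream and -284 bp with 1000 bp. Neither value was counted as a change. With only the most upstream TSS of each gene there were 838 members, 20.04% of autosomal regions. Ranks 1 to 2500 gave 595 members, 28.2% of regions, with 70.8% in both replicate lists, 27.2% in the top 5000 of both and 19.7% in windows of several genes. Ranks 1 to 10000 gave 1778, 21.3%, 47.2%, 9.34% and 11.8%. Matching within 50 or 200 bp put 43.8% or 78.0% of members in both lists. Leaving out 1 replicate gave 966 to 974 members, 23.2% to 23.3% of regions and 11.7% to 14.6% in windows of several genes, with 11.7% without replicate 1. It gave a GC content of 38.3% to 38.5%, a median summit position of -161 to -145.5 bp from the TSS, 39.1% of members in the middle of chromosomes and 22 lists above all genes.

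List shares crossed that of all genes as follows. Small ribosomal subunit genes had 3.23% against 3.60% with 200 bp upstream. Fatty acid genes had 10.1% against 9.83% with 1000 bp, 7.59% against 6.11% without replicate 1 and 6.33% against 6.29% without replicate 2. Mitochondrial import had 0 against 4.03% at ranks 1 to 2500. Without replicate 1, secretory translocation genes had 0 and homeobox genes 6.15%, against 6.11%. Among genes with any pooled region, core histones had 33.3% and P450s 27.3%, against 26.3%. Nuclear hormone receptors had 5.26% against 4.91% with shared windows left out. The difference for GATAA was 0.593 percentage points with 100 bp on either side. No paired analysis was possible because the design holds 1 group only. The lists give no depth, and sequence of nhr-84 from the transgene and from the gene itself cannot be told apart.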

Other observations

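A search of 2080 words of 6 bases gave others with large shares near the strongest members. The words were ranked on the 168 members of ranks 1 to 500 against lower promoter regions, so their shares there are a description, and the 857 members beyond rank 500 were not used in the ranking. CGCAAA was at 20.2% of the first set, 6.77% of the second and 5.75% of lower promoter regions. GCGCAC was at 13.7%, 3.50% and 2.05%. ACGCAG, at 14.3%, 4.78% and 3.02%, is CTGCGT read on the other strand, so it is not a further word. AGTGCG was at 12.5%, 2.80% and 2.02%. The shares in the second set were much nearer those of the lower regions.

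The printed windows of rpl-3, cdc-48.1, rpl-35 and scc-2 share the letters GCGTGTTT on 1 strand or the other, a word noticed by reading them. It was within 50 bp of 6 of the 52 members among the IDR peaks (11.5%, Wilson interval 5.40 to 23.0), 3 of which are windows it was noticed in. Below the IDR peaks it was at 11 of 973 members (1.13%, 0.632 to 2.01), 1 of them scc-2. It was at 0.326% of lower promoter regions, 0.222% of regions of ranks 1 to 5000 off promoters and 0.487% of coding gene starts. A word chosen from the members cannot be tested on them.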
